A study of Mus musculus with 8 samples.

Results

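Newly formed oligodendrocytes of the mouse prefrontal cortex (PFC) are the cells that the deposited annotation of single-cell RNA sequencing (scRNA-seq) data names as NF Oligo. They were 295 of the 8997 annotated PFC cells, and 295 of 23687 annotated cells in the whole series, which also holds striatum. The cells came from 4 PFC libraries, 2 from wild-type (WT) littermates and 2 from mice heterozygous for a Setd1a loss-of-function allele (Setd1a+/-), and each library pooled the tissue of 2 male C57BL/6N mice, aged 8 to 10 weeks by the labels, while the study's methods give an older age. The allele is a frameshift made with CRISPR-Cas9 ahead of the SET domain, the catalytic part of this histone H3 lysine 4 methyltransferase; it is 1 chosen allele, backcrossed to C57BL/6N, every cell of the animal carried it, and neither genotype received any other treatment. WT replicate 1 gave 84 newly formed oligodendrocytes, WT replicate 2 gave 74, Setd1a+/- replicate 1 gave 102 and Setd1a+/- replicate 2 gave 35. Values are given in that order throughout.

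Oligodendrocytes make the myelin sheaths of the central nervous system. They arise from progenitor cells (OPCs), which keep dividing in the adult brain; a progenitor that starts to differentiate leaves the cell cycle, loses the PDGF receptor and the proteoglycans of its surface, extends many processes and passes through a short-lived premyelinating stage before it wraps axons and fills its membrane with myelin proteins. Newly formed oligodendrocytes are the cells between these states, and the annotation places them beside 1337 OPCs and 1694 mature oligodendrocytes of the same libraries.

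The newly formed cells held 336038, 195994, 256393 and 111549 unique molecular identifiers (UMIs, one for each captured RNA molecule) in the 4 libraries. The median cell held 3971, 2275, 2496 and 2802 UMIs, more in every library than the median OPC (1403 to 1919) or the median mature oligodendrocyte (1888 to 2191). Levels below are CPM, the UMIs of a gene in these cells of a library scaled to a total of 1000000 UMIs, so 3 UMIs, the upper limit that a count of 0 allows, stand for 8.93, 15.3, 11.7 and 26.9 CPM; these limits cover counting error only. Of the 295 cells, 5 were marked as likely doublets. No barcode was shared by newly formed cells of 2 libraries, and 2 of their barcodes were annotated in another PFC library.

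Summed markers of other cell types were low: 10 neuron markers reached 262 to 597 CPM against 16170 to 19230 in excitatory neurons, 9 astrocyte markers 394 to 482 CPM, 9 microglia markers 35.7 to 148 CPM and 9 endothelial markers 385 to 719 CPM. The highest of these sums was 3.69% of the level in the cell type itself, for the neuron markers. Gad2, the enzyme that makes GABA, and Agt, an astrocyte gene, had no UMI in the newly formed cells of any library.

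The stretches of genome just ahead of 3 marker genes are printed here because these genes, which lie on 2 chromosomes, were high in these cells in every library, as described below. They are the 250 bases before the annotated start in RefSeq (GRCm38.p6), on the strand of the gene and 5′ to 3′, and they overlap no exon of GENCODE vM21. Capitals mark CAGCTG, the E-box letters bound by OLIG2 and other basic helix-loop-helix factors. Bmp4 encodes a secreted ligand of the bone morphogenetic protein family and was read at chr14:46390670-46390919, minus strand. The second, 9630013A20Rik, is a long noncoding RNA annotated as antisense, read at chr14:84476425-84476674, minus strand. Enpp6 encodes a choline phosphodiesterase of the cell surface and was read at chr8:46986637-46986886, plus strand.
Bmp4: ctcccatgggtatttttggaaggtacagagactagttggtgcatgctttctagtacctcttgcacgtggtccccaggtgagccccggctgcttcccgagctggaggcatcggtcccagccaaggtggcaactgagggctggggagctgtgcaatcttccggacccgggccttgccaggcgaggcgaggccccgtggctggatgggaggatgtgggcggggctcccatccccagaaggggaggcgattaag
9630013A20Rik: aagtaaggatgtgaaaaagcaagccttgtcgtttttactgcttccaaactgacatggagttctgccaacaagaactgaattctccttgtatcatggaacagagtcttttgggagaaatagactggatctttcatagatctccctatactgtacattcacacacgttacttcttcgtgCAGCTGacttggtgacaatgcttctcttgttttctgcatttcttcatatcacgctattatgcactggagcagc
Enpp6: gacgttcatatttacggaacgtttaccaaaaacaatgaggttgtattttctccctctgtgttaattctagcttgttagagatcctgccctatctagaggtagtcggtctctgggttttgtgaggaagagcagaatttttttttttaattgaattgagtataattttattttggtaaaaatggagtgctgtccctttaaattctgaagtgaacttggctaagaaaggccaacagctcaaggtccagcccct

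Of the 3 stretches, that of 9630013A20Rik holds CAGCTG, and none holds TCAAAG (the TCF/LEF letters), ACAAAG (SOX) or CTGGCAC (MYRF) on either strand. The stretches of Bmp4, 9630013A20Rik and Enpp6 hold 11, 4 and 4 CpG dinucleotides and are 63.2%, 41.2% and 38.4% G or C. Across 64 stretches of the same length ahead of 49 enriched genes described below, of which 35 overlap an annotated exon and 11 genes have more than 1, CAGCTG was found in 10 (15.6%, against 13% of 32851 mouse promoters), ACAAAG in 9 (14.1% against 16.5%), CTGGCAC in 4 (6.25% against 4.19%) and TCAAAG in 3 (4.69% against 13.8%). Their median was 17 CpG and 63.6% G or C, against 6 and 52.4% over all promoters. A match describes letters only, and the base composition of the windows was not matched.

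The 4 genes that mark the type were high in every library. 9630013A20Rik stood at 1875, 1602, 1420 and 2259 CPM in newly formed oligodendrocytes. In OPCs it stood at 0 to 5.92 CPM, and in mature oligodendrocytes at 8.12, 7.39, 159 and 28.6 CPM. The mature value of 159 CPM, in Setd1a+/- replicate 1, came from 125 UMIs in 6 of 321 cells, 75 of them in 1 cell.

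Bmp4 was measured at 664, 796, 620 and 932 CPM in newly formed oligodendrocytes, against 10.5 to 24.8 CPM in OPCs and 0 to 3.82 CPM in mature oligodendrocytes. Among the other types its mean was highest in endothelial cells (17.5 CPM). Enpp6 was measured at 1794, 1015, 1299 and 1183 CPM. Its other source was the mature oligodendrocyte, with 114 to 151 CPM, while OPCs held 1 UMI of it in all. Gpr17, a G protein-coupled receptor that is known to be lost before myelination, was measured at 1071, 1077, 827 and 834 CPM. OPCs already held 237 to 325 CPM of Gpr17, and mature oligodendrocytes 8.57 to 21.7 CPM. For each of the 4 genes the lowest newly formed library was above the highest value of any other type in any library. In WT replicate 1 the microglia held 37.2 CPM of Enpp6, 35.5 CPM of Gpr17 and 12.4 CPM of Bmp4, above the other 3 microglial samples, and the source of these UMIs was not tested.

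**Figure D1:**
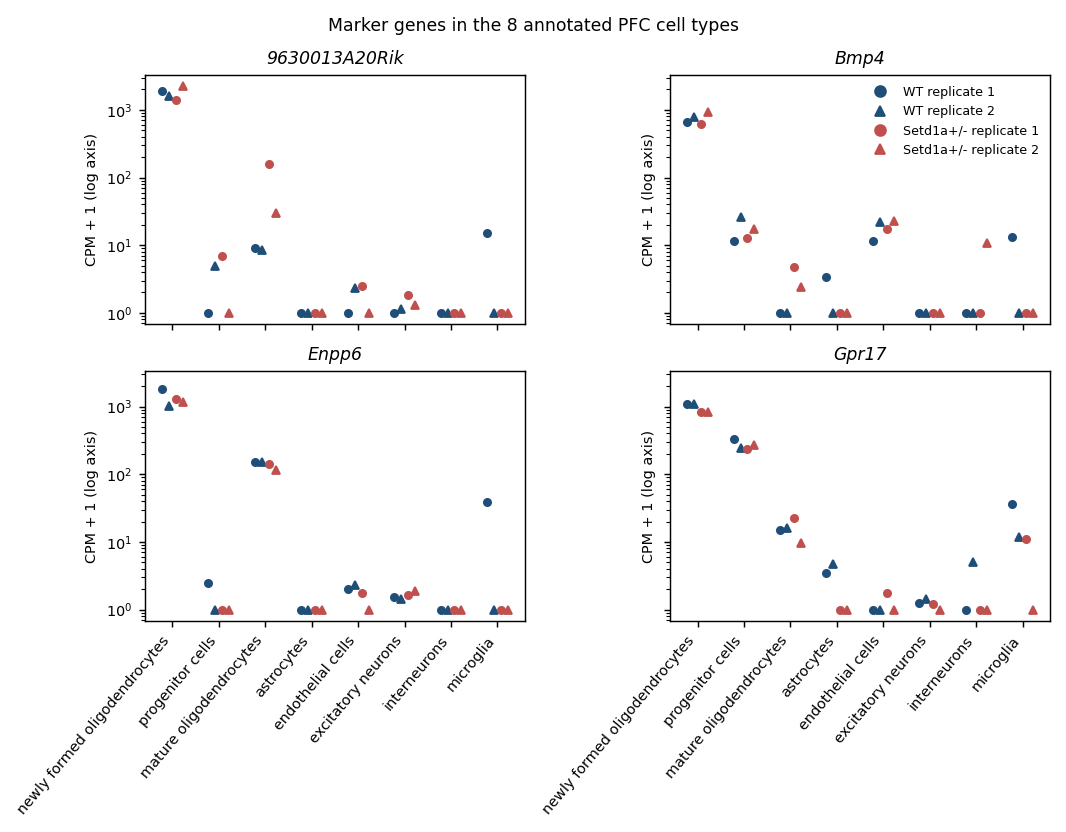
Level of the 4 marker genes in each of the 8 annotated PFC cell types, in CPM plus 1 on a log axis, with 1 point per library (circles replicate 1, triangles replicate 2, blue WT, red Setd1a+/-). The newly formed oligodendrocytes lie between 620 and 2259 CPM for all 4 genes, the OPCs come next for Gpr17 and the mature oligodendrocytes for Enpp6.

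When every cell was thinned to 1000 UMIs, so that deep and shallow cells could be set side by side, Gpr17 was found in 62.7% of newly formed cells (95% Wilson interval 57.1% to 68.0%), Enpp6 in 62.4% (56.7% to 67.7%), 9630013A20Rik in 55.6% (49.9% to 61.2%) and Bmp4 in 46.8% (41.2% to 52.5%). These intervals, and those over all 295 cells below, pool the cells of the 4 libraries and leave out the spread between libraries. By library the thinned shares were 56.9% to 67.9% for Gpr17 and 54.1% to 75.0% for Enpp6. They were 48.0% to 66.7% for 9630013A20Rik and 41.2% to 60.0% for Bmp4. Without thinning the pooled shares were 87.1%, 82.4%, 75.9% and 72.2%, at a median of 2802 UMIs per cell. The background was low: in microglia, which should lack these RNAs and had a median of 2038 UMIs, the thinned shares were 0.415% to 0.830%. In OPCs 22.1% of cells held Gpr17 (19.9% to 24.9% across libraries), and in mature oligodendrocytes 11.9% held Enpp6. No cell was left out by the thinning.

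To describe the type across all genes, a gene was counted as enriched when it had at least 10 UMIs in the newly formed cells of every library and at least 2 times the CPM of each of the other 7 PFC types within every library. The clusters were made from these same genes, so the count is a description and carries no test. Of 1952 genes over the minimum, 61 were enriched (3.12%), and 20 were also enriched at 4-fold. Outside the newly formed cells, 32 of the 61 were highest in OPCs, 12 in mature oligodendrocytes and 17 in a type outside the lineage. Just inside the rule stood Ppp1cb, with a lowest ratio of 2.00, Sox4 (2.05) and Stam (2.07), and just outside stood Zfp488 (1.99) and Gnb4 (1.98). In all, 58 of the 61 are annotated as protein coding.

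The first 20 enriched genes, ordered by the ratio of mean CPM to the highest mean of another type with 5 CPM added to both, included kinases and GTPases, regulators of tubulin and membrane proteins, nuclear proteins, and genes of matrix and metabolism. Fyn, a Src family tyrosine kinase that acts in process outgrowth and early myelination, stood at 3006, 2837, 3456 and 2465 CPM, against 118 CPM in OPCs and 24.6 CPM in mature oligodendrocytes (means of 4 libraries). Fyn was found in 90.2% of thinned newly formed cells and in 11.4% of OPCs. Pak4, a kinase that acts on actin, averaged 468 ± 130 CPM (SD, n = 4 libraries) against 55.5 CPM in OPCs. Rnd2, a small GTPase, averaged 203 ± 37.4 CPM against 25.3 CPM in OPCs. Tns3, a tensin that ties integrins to actin, averaged 627 ± 140 CPM against 92.4 CPM in OPCs, and Rasgef1b, an exchange factor for Ras family GTPases, 243 ± 67.5 CPM against 43.8 CPM in excitatory neurons.

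Sirt2, the deacetylase that acts on tubulin in oligodendrocytes, stood at 7466, 7214, 6732 and 7378 CPM. Its level was about the same in all 4 libraries, and the mean of 7198 ± 328 CPM compared with 1083 CPM in mature oligodendrocytes and 771 CPM in OPCs. Bcas1, known as a marker of early myelinating cells, averaged 918 ± 183 CPM against 136 CPM in OPCs. Bfsp2, an intermediate filament protein best known from the lens, averaged 1032 ± 101 CPM against 188 CPM in mature oligodendrocytes. Tmem108, a transmembrane protein, averaged 873 ± 122 CPM against 118 CPM in OPCs.

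Among proteins of the nucleus and of translation, Brca1, a DNA repair protein, stood at 315, 449, 425 and 394 CPM, against 9.38 CPM in OPCs and 0.464 CPM in mature oligodendrocytes. Brca1 was found in 26.8% of thinned newly formed cells and in 0.673% of OPCs. Mycl, a transcription factor of the MYC family, averaged 218 ± 31.7 CPM against 24.0 CPM in OPCs, and Pdcd4, an inhibitor of translation, averaged 873 ± 119 CPM against 106 CPM in excitatory neurons. Among matrix and metabolic genes, Matn1, a matrilin, averaged 290 ± 94.7 CPM against 16.1 CPM in OPCs, Ust, a sulfotransferase of glycosaminoglycans, 148 ± 35.3 CPM against 14.8 CPM, and Pycr1, an enzyme of proline synthesis, 120 ± 34.7 CPM against 5.24 CPM. The remaining members of the 20 were Bmp4, 9630013A20Rik and Enpp6, Lrrc42 and Fkbp15. Fkbp15 was the least even of them, at 185, 500, 183 and 161 CPM.

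**Figure D2:**
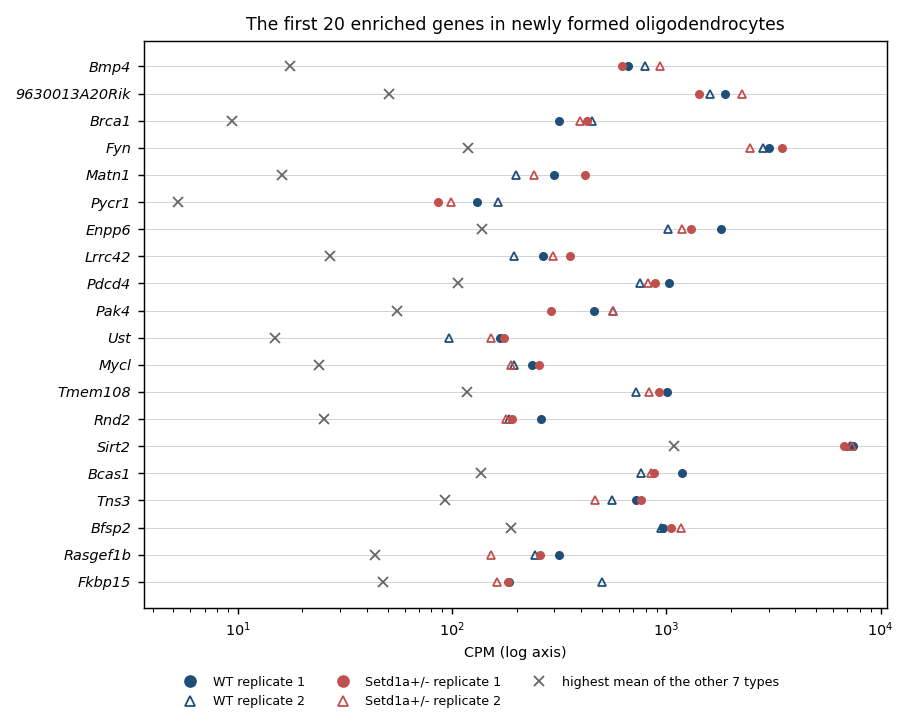
CPM of the first 20 enriched genes in newly formed oligodendrocytes, on a log axis, with 1 point per library and a cross at the highest mean among the other 7 PFC types. Every library lies to the right of the cross for every gene, from Bmp4 (cross at 17.5 CPM) to Fkbp15 (cross at 47.7 CPM).

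The same genes were then read in the striatum, whose 4 libraries the rule had not used. Striatal newly formed oligodendrocytes (165 cells, 1 of 10 annotated striatal types) had the highest mean CPM of all striatal types for 58 of the 61 genes (95.1%), and for 52 of them by 2-fold or more. Of the 1891 other genes over the minimum, 388 (20.5%) were highest there. All of the first 20 were among the 58. The exceptions included Sox4 and Eif4a1, both of which were higher in striatal neural stem cells and neuroblasts, a type that the PFC annotation does not have. Fyn averaged 2209 CPM in the striatal newly formed cells against 93.7 CPM in the next type, Bmp4 698 against 20.9 CPM, and Brca1 292 against 24.7 CPM. The striatal cells carry their name for the same genes, so this is a description too.

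Some enriched genes are neighbours in the genome. By GENCODE vM21, 13 of the 61 (21.3%) lie within 100 kb of another enriched gene, and 29 of 1889 other genes over the minimum (1.54%) lie within 100 kb of an enriched gene. Brca1 (chr11:101488764-101551955, minus strand) and Rnd2 (chr11:101464999-101471853, plus strand) are 16911 bases apart. On chromosome 9, Tmem108, Bfsp2 and Cdv3 lie in a row, with gaps of 2527 and 59084 bases, and on chromosome 13 Sox4 and the noncoding A330102I10Rik are 60686 bases apart. Pak4 and Samd4b overlap on the same strand, so UMIs of one could have been counted for the other, and their levels are uncertain to that extent. Sirt2 and Nfkbib, and Lims2 and Gpr17, overlap on opposite strands, which Cell Ranger is known to count apart.

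Next the newly formed cells were set against the types that come before and after them. A gene was counted as higher or lower when it differed at least 2-fold in the same direction in every library and had at least 10 UMIs in the higher type in every library. Against OPCs, 192 of 5209 genes were higher (3.69%) and 489 lower (9.39%), with a median log2 ratio of -0.15 over all of them. Against mature oligodendrocytes, 377 of 5312 were higher (7.1%) and 461 lower (8.68%), with a median of 0.27. The newly formed cells held fewer UMIs in every library than either neighbouring type. In them 1952 genes had 10 UMIs in every library and so could count as higher, fewer than could count as lower. The shares of higher and of lower genes are therefore not on an equal footing. These clusters too were drawn from the genes compared, and no test was made. Every member of a list is counted below, and a member under the minimum counts as neither higher nor lower. The shares above are over genes that could be compared, so they and the list counts do not have the same base.

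Genes of the OPC state were low. Of 19 progenitor genes, 11 were lower than in OPCs and none higher, with a median log2 ratio of -2.0. Pdgfra, the receptor for the mitogen PDGF, stood at 2.98, 5.10, 3.90 and 0 CPM in newly formed cells, against 1507, 831, 808 and 1020 CPM in OPCs, and was found in 1 of 295 thinned cells against 60.4% of OPCs. Cspg5, a proteoglycan, averaged 15.1 CPM against 1200 CPM. Ptprz1, a receptor phosphatase of the cell surface, kept 521, 490, 359 and 556 CPM against 2705 to 4724 CPM in OPCs, and Serpine2, a secreted protease inhibitor, 571 ± 128 CPM against 3240 CPM.

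Other progenitor genes were not lower than in OPCs by the rule. Tnr, the matrix glycoprotein tenascin-R, averaged 2025 ± 210 CPM against 1049 CPM in OPCs and 16.6 CPM in mature oligodendrocytes, and Sox6, a transcription factor, 319 ± 21.4 CPM against 264 and 2.42 CPM. Against mature oligodendrocytes, 8 of the 19 were higher and none was lower. Neu4, a sialidase of the newly formed stage list, had the same course, with 937 ± 148 CPM against 618 CPM in OPCs and 6.35 CPM in mature cells.

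Genes of the division cycle were near the floor. Ccnd1 and Ccnd2, cyclins that drive entry into the cycle, were lower than in OPCs, at 15.0 against 574 CPM and 8.54 against 137 CPM, and they were the only 2 of 22 cell cycle genes to differ by the rule. Of the 22, 6 had no UMI in any library, among them Top2a and Rrm2, and 4 of the 22 had the UMIs to be compared with OPCs.

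The list of committed precursor and newly formed stage genes went the other way: of 19 members, 11 were higher than in OPCs and 12 higher than in mature oligodendrocytes, none was lower than in either, and 9 were among the 61 enriched genes. This list was drawn up from knowledge of the stage, with earlier results of these data known, and holds genes that also name it. Its counts are a description only. Besides Sirt2, Fyn and Bcas1 it includes Nfasc, the adhesion molecule neurofascin, at 953 ± 183 CPM against 31.2 CPM in OPCs and 268 CPM in mature cells, and Frmd4a, a scaffold protein, at 599 ± 161 CPM against 9.57 and 24.9 CPM. Mpzl1, a surface glycoprotein, was uneven, at 1345, 556, 1818 and 520 CPM, high in both libraries with replicate number 1.

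Myelin genes were partly on. Of 16 myelin protein genes, 9 had the UMIs to be compared with OPCs and 15 with mature oligodendrocytes. Of the 16, 7 were higher than in OPCs and none lower, and 11 were lower than in mature oligodendrocytes and none higher. Mbp, myelin basic protein, stood at 9309, 7806, 11900 and 11923 CPM, close to the mature mean of 12574 CPM and far from the 160 CPM of OPCs, and Cnp, a phosphodiesterase of the cytoplasmic side of myelin, averaged 5012 ± 791 CPM against 7521 and 319 CPM.

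Proteins that sit on the finished sheath were further behind. Mag averaged 995 ± 497 CPM against 3131 CPM in mature cells, Mog 224 ± 50.5 against 2479 CPM, Mobp 103 ± 97.3 against 3293 CPM, Opalin 36.7 ± 30.1 against 2944 CPM and Mal 26.7 ± 20.9 against 4145 CPM. Mag stood at 851, 1061, 437 and 1632 CPM in the 4 libraries, and Setd1a+/- replicate 1, the lowest of these, was also the lowest library in mature cells (1624 CPM against 2734 to 4266 CPM).

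Of 20 genes of the mature oligodendrocyte, 18 were lower than in mature cells, among them Car2, carbonic anhydrase, at 25.2 against 7940 CPM, and Trf, transferrin, at 95.1 against 6736 CPM. Of the 20, 5 had the UMIs to be compared with OPCs. Cryab, a small heat shock protein, and Ptgds, prostaglandin D synthase, were the 2 that also exceeded OPCs. They averaged 1615 ± 238 against 343 CPM and 853 ± 230 against 251 CPM. Of 25 genes of cholesterol and myelin lipid synthesis, 3 were higher than in OPCs: Ugt8a, which makes galactosylceramide (363 ± 72.3 against 101 CPM), Fa2h, which hydroxylates its fatty acid (112 ± 5.68 against 18.8 CPM), and Elovl7, a fatty acid elongase (181 ± 61.3 against 21.2 CPM). Only Cers2, a ceramide synthase, was lower than in mature cells by the rule, at 159 against 699 CPM, while the list's median log2 ratio to mature cells was -0.46.

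**Figure D3:**
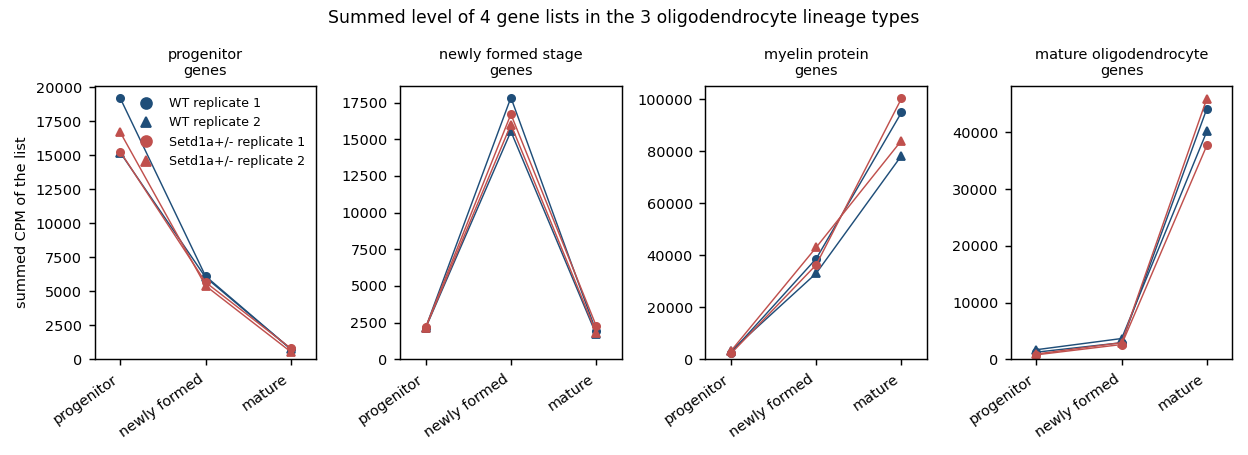
Summed CPM of 4 gene lists in OPCs, newly formed oligodendrocytes and mature oligodendrocytes, with 1 line per library. The newly formed stage list peaks in the middle at 15531 to 17840 CPM, and the mature oligodendrocyte list, 2613 to 3669 CPM there, is highest in the last type, where it stands at 37694 to 45954 CPM.

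Among 25 transcription factors of the lineage, 3 were higher than in OPCs and 5 lower. Tcf7l2, an effector of Wnt signalling that is known to mark the premyelinating stage, stood at 426, 495, 324 and 502 CPM, against 43.4 to 72.3 CPM in OPCs and 17.4 to 25.9 CPM in mature oligodendrocytes. Sox4 averaged 346 ± 145 CPM against 117 and 6.44 CPM. Myrf, the factor that drives myelin genes, averaged 114 ± 9.81 CPM, against 14.5 CPM in OPCs and 115 CPM in mature oligodendrocytes. The lower ones included Id2, Myt1, Sox11 and Nfib. Id2, an inhibitor of basic helix-loop-helix factors, averaged 17.9 CPM against 284 CPM. Sox10, which the whole lineage needs, was level with OPCs (236 ± 82.2 against 236 CPM). Nkx6-2 was the only factor lower than in mature cells, at 4.94 against 96.9 CPM.

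Of 22 Wnt and BMP signalling genes, 8 had the UMIs to be compared with OPCs and 8 with mature oligodendrocytes. Bmp4 and Tcf7l2 were the 2 that exceeded both OPCs and mature oligodendrocytes; Rnf43, which removes Wnt receptors, was lower than in OPCs (8.97 against 28.1 CPM). The receptor Bmpr2 averaged 66.0 ± 27.2 CPM and Smad1, which carries the BMP signal, 34.0 ± 8.99 CPM, neither apart from OPCs by the rule (45.2 and 28.3 CPM). The Wnt target and feedback gene Axin2 averaged 27.4 ± 17.8 CPM, against 25.1 CPM in OPCs. Bmpr1b, Bmp2, Smad6, Apcdd1, Notum, Sp5, Lgr5 and Wif1 had no UMI in any library, which allows up to the 8.93 to 26.9 CPM given above.

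Of 25 genes of the cytoskeleton and of process outgrowth, 6 were higher than in OPCs and 3 lower. Tuba1a, an alpha tubulin, stood at 12781, 9638, 16061 and 10327 CPM against 2785 CPM in OPCs and 2485 CPM in mature cells, and Map1b, which binds microtubules, at 1600 ± 201 CPM against 129 and 127 CPM. Tubb4a, a beta tubulin of oligodendrocytes, was higher than the 69.0 CPM of OPCs, but its libraries stood at 670, 2102, 371 and 1784 CPM. The genes lower than in mature cells included Stmn4, a stathmin that acts on microtubules (66.2 against 3330 CPM), Stmn1 (110 against 3062 CPM) and Tppp, a tubulin polymerisation protein (81.9 against 246 CPM). Among 27 adhesion genes, 11 were higher than in mature cells, including Tnr, Nfasc, Bcan and Vcan, and Cntn1, an axon-glia contactin, was lower than in OPCs (192 ± 38.5 against 946 CPM).

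Of 15 genes of the H3K4 methyltransferase complexes, to which Setd1a belongs, 7 had the UMIs to be compared with OPCs and 7 with mature cells, and none of these differed by the rule. Dpy30, a shared subunit, averaged 110 ± 26.5 CPM against 127 and 77.8 CPM. Of 21 genes that respond to tissue dissociation, 6 could be compared with OPCs and none of them differed, and of 7 that could be compared with mature cells Hsp90aa1 was lower (679 against 1519 CPM).

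The newly formed cells were not all alike, and they were sorted by what else they held. Cells thinned to 1000 UMIs were scored for at least 1 UMI of a progenitor panel (Pdgfra, Cspg4, Cacng4, C1ql1 and Matn4) and of a late myelin panel (Mog, Mag, Mal, Opalin and Mobp). Progenitor UMIs were found in 25.4% of newly formed cells (20.8% to 30.7%), against 86.0% of OPCs and 3.72% of mature oligodendrocytes. Late myelin UMIs were found in 42.7% (37.2% to 48.4%), against 4.04% and 100% of 1694. The background in microglia was 3.73% and 8.92%; endothelial cells express Mal themselves and gave 5.25% and 28.0%. Without thinning the newly formed shares were 46.4% and 59.3%.

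By library, progenitor UMIs were found in 27.4%, 28.4%, 20.6% and 28.6% of newly formed cells and late myelin UMIs in 51.2%, 43.2%, 32.4% and 51.4%. The lowest shares of both were those of Setd1a+/- replicate 1, which also had the largest share of cells with neither (52.0%, against 29.8% to 33.8%). In the neighbouring types this library was low for some panel genes and not for others. Progenitor UMIs were found in 80.6% of its OPCs against 83.7% to 93.8%. Cspg4, Cacng4 and C1ql1 were lowest in its OPCs, Matn4 was highest (39.0% against 29.3% to 37.3%) and Pdgfra lay between. Late myelin UMIs were found in 100% of mature oligodendrocytes in every library. In those of Setd1a+/- replicate 1, Mag was found in 75.1% against 90.2% to 97.7%. Mog (91.3%) and Mal (96.6%) were highest in this library, and Opalin and Mobp lay between. The Wilson intervals of all 4 libraries overlapped for each panel, while for the cells with neither that of Setd1a+/- replicate 1 (42.4% to 61.4%) lay above that of WT replicate 1 (21.0% to 40.3%). The progenitor UMIs came mostly from Cacng4 (15.3% of cells) and Matn4 (8.81%) and the late ones from Mag (30.9%) and Mog (16.3%). Opalin was found in 3.05% of cells (1.61% to 5.70%) against 0.207% of microglia (0.0366% to 1.17%). Mal and Mobp, at 1.69% and 2.71%, were at or below their microglial background of 2.49% and 3.73%. By library the thinned share of Mobp was 2.38%, 0%, 2.94% and 8.57%. Without thinning Mal and Mobp were found in 4.75% and 6.44% of newly formed cells, against 4.15% and 4.77% of microglia. The newly formed cells were deeper there (median 2802 against 2038 UMIs).

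**Figure D4:**
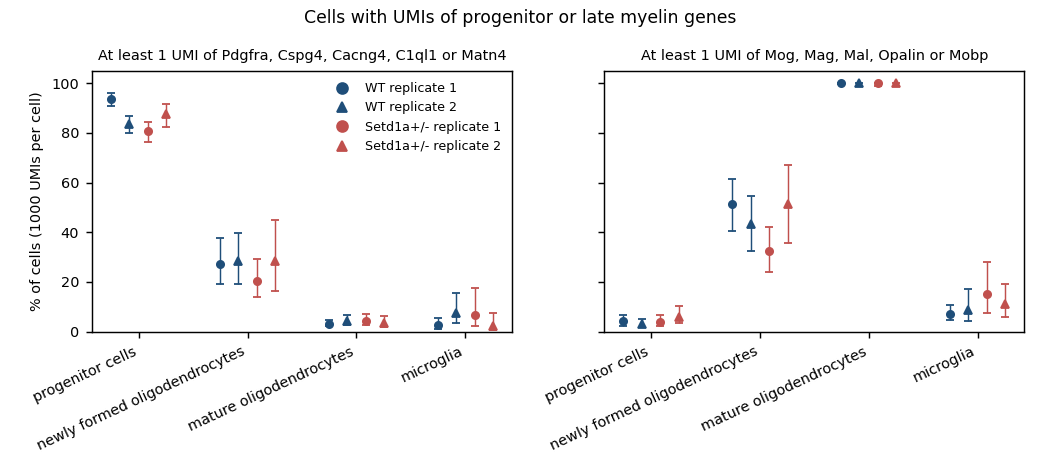
Share of cells thinned to 1000 UMIs with at least 1 UMI of the progenitor panel (left) or of the late myelin panel (right), by cell type and library, with 95% Wilson intervals. Newly formed oligodendrocytes lie between OPCs and mature oligodendrocytes on both, at 20.6% to 28.6% and 32.4% to 51.4%.

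Over all 295 cells, 55 held progenitor UMIs alone, 106 late UMIs alone, 20 both and 114 neither. These are ranges along a scale and not types, since 1 UMI moves a cell from one to the next, and the 106 cells with late UMIs alone were deeper (median 3666 UMIs) than the 55 with progenitor UMIs alone (median 2278). Genes outside the panels also differed between them, in CPM of all UMIs of the cells. Tcf7l2 stood at 742 CPM in the cells with late UMIs alone (299 UMIs) and at 101 CPM in those with progenitor UMIs alone (14 UMIs). 9630013A20Rik stood at 2814 against 596 CPM, Enpp6 at 1878 against 761 CPM, Brca1 at 499 against 151 CPM, Mbp at 16650 against 2528 CPM and Cldn11, the claudin of myelin, at 3811 against 496 CPM. Gpr17 ran the other way, at 613 against 1365 CPM, as did Ptprz1, at 305 against 761 CPM, and Sox6, at 268 against 474 CPM. Each of these 9 genes had the same order in all 4 libraries. Bmp4 had none: 697 against 654 CPM, higher on the late side in 2 libraries and on the progenitor side in 2.

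The comparison of genotypes asked how loss of 1 Setd1a copy bears on these cells. Setd1a itself (chr7:127776670-127800122, GRCm38) had 5, 0, 1 and 0 UMIs in the newly formed cells, too few for a test. Over all annotated PFC cells it stood at 8.45, 11.2, 5.59 and 9.33 CPM, so the groups overlapped, and within each replicate number Setd1a+/- was the lower. A frameshift does not remove the 3′ end that this method counts, so these values do not check the labels.

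Newly formed oligodendrocytes made up 3.2% (2.59% to 3.95%), 2.76% (2.21% to 3.45%), 4.67% (3.86% to 5.63%) and 2.32% (1.67% to 3.21%) of the annotated cells. Setd1a+/- replicate 1 was the highest and Setd1a+/- replicate 2 the lowest, so the WT libraries lay between them. The mean share was 0.51 percentage points higher in Setd1a+/- (exact permutation test, both sides, over libraries, p = 1, where 2 libraries against 2 can go no lower than 0.333). Within replicate 1 the difference was 1.46 points and within replicate 2 it was -0.44 points. Without Setd1a+/- replicate 1 it was -0.66 points. As shares of the oligodendrocyte lineage the libraries stood at 7.54%, 8.26%, 13.2% and 6.46%.

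Across genes, no gene was called between genotypes by a test over libraries. The paper reports differentially expressed genes in this type from DEsingle, a test over cells, which was not run here. UMIs were summed over the newly formed cells of each library, and 3889 genes were compared by the quasi-likelihood method of edgeR; 0 of them (0%) passed a Benjamini-Hochberg false discovery rate (FDR) under 0.05 with a fold change above 1.5. At an unadjusted p under 0.05 there were 81 genes, 53 lower in Setd1a+/- (1.36%) and 28 higher (0.72%). DESeq2, run on 12967 genes with no filter on low counts, also called 0, with 6 at an unadjusted p under 0.05. In tests on simulated counts of this comparison, 1.12% of genes changed 2-fold were called, 76.0% of those changed 4-fold and 92.2% of those changed 8-fold. Changes of 2-fold were thus for the most part not detectable with these libraries. Depth, the number of libraries and their spread were not varied, so the limit cannot be assigned to any of them. The simulation changed 200 genes at once, gave every gene the same spread between libraries and held no shared batch. Its shares for 4-fold and 8-fold may therefore not hold for a gene that changes alone or varies more. This main fit had no block for the replicate number, so differences that both genotypes share between replicates counted as spread. With the replicate number as a block, 1 gene was called, Gm42418, with a log2 fold change of -2.43 (edgeR FDR 0.0253). In that fit 193 genes had an unadjusted p under 0.05. Leaving out 1 library leaves 1 library of its genotype, so the genotype difference is then mixed with the difference between replicate numbers. Eno1 had a log2 fold change of 2.77 without WT replicate 2 and -3.40 without Setd1a+/- replicate 2. Ap2a1 had 4.11 and -6.71 in the same fits, and the levels of both genes are given at the end. Haemoglobin genes also had large differences in the fits that kept WT replicate 1. Their UMIs in that library lay mostly in 1 cell, described below.

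Gm42418, an annotated noncoding RNA on chromosome 17 that overlaps a ribosomal RNA gene and collects its reads, stood at 280, 112, 27.3 and 62.8 CPM in newly formed oligodendrocytes (94, 22, 7 and 7 UMIs). The Setd1a+/- libraries were below the WT libraries, by a log2 fold change of -2.32 ± 0.55 (SE; edgeR FDR 1.00), which was -1.5 without WT replicate 1 and -1.65 without Setd1a+/- replicate 1. The same order was seen in OPCs (487, 236, 39.5 and 134 CPM) and in mature oligodendrocytes (594, 252, 30.6 and 146 CPM), and the genotype effect differed from theirs by 0.03 and 0.29 on the log2 scale (edgeR interaction FDR 1 for both). Within the newly formed cells the WT libraries themselves differed by over 2-fold.

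The other 9 genes with the smallest p whose groups did not overlap had no FDR under 0.99. Of all genes tested, 13.8% had both Setd1a+/- libraries below both WT libraries and 13.6% had both above. Jarid2, a partner of Polycomb repressive complex 2, stood at 98.2, 71.4, 23.4 and 26.9 CPM, a log2 fold change of -1.79 ± 0.52. It had 6 and 3 UMIs in the Setd1a+/- libraries. Both Setd1a+/- libraries were also below both WT libraries for Jarid2 in OPCs (81.0, 39.1, 33.6 and 29.5 CPM) and mature oligodendrocytes (58.0, 41.9, 33.1 and 31.4 CPM). Mybbp1a and mt-Atp8, named below, were also lower without overlap in both of those types. Of the rest named below, only Car8 kept its direction without overlap in both. In mature cells Car8 was near the floor, at 1.16, 0, 6.37 and 1.43 CPM. There 3 UMIs stand for 1.74, 3.69, 3.82 and 4.28 CPM, so its order in that type is uncertain. Spag9, a scaffold of JNK signalling, had -1.47 ± 0.46 (-0.79 without WT replicate 1), Hadha, an enzyme of mitochondrial fatty acid oxidation, -1.05 ± 0.34, and Rpn1, a subunit of the oligosaccharyltransferase, -0.97 ± 0.33. The nucleolar genes Mybbp1a and Noc3l had -1.68 ± 0.56 and -1.79 ± 0.61, each with 3 to 5 UMIs in the Setd1a+/- libraries. Car8, a carbonic anhydrase-related protein, was the one with a higher Setd1a+/- mean, at 68.4, 61.2, 195 and 89.6 CPM (1.20 ± 0.41), and without Setd1a+/- replicate 1 its log2 fold change was 0.49. The mitochondrial mt-Atp8 had -1.77 ± 0.64 (-0.95 without Setd1a+/- replicate 1 and -2.50 without Setd1a+/- replicate 2), with 4 and 5 UMIs in the Setd1a+/- libraries. Lcorl, a transcription factor among the 61 enriched genes, had -1.17 ± 0.43. Lcorl stood at 539, 204, 183 and 143 CPM, so WT replicate 1 sat apart, and without it the log2 fold change was -0.33.

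**Figure D5:**
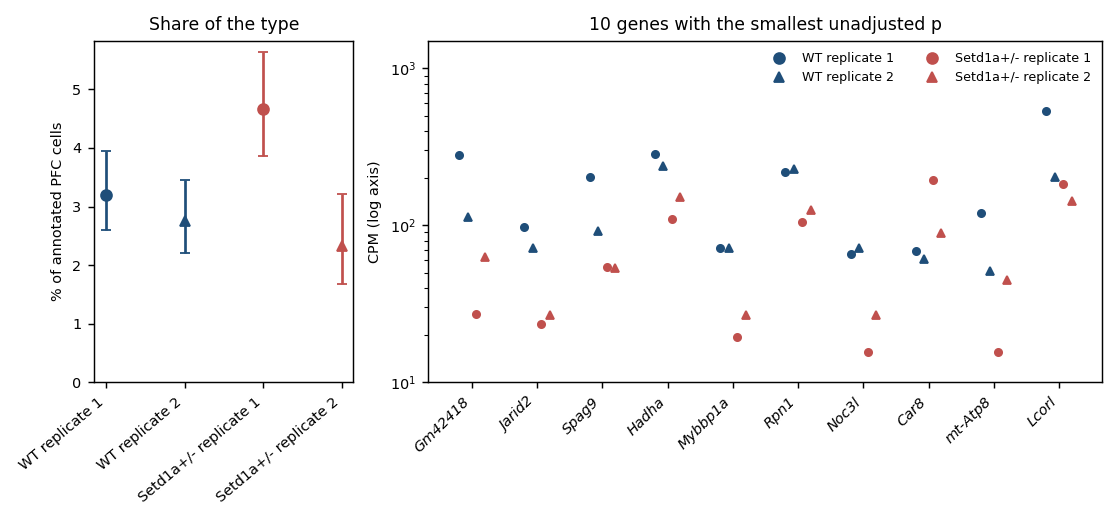
Left, newly formed oligodendrocytes as a percentage of annotated PFC cells in each library with 95% Wilson intervals. Right, CPM on a log axis of the 10 genes with the smallest unadjusted p whose genotypes do not overlap, 9 lower and 1 (Car8) higher in Setd1a+/-; none was called.

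None of the genes that set the type apart was called between genotypes. All 61 enriched genes were tested; their median log2 fold change was 0.02, against 0.01 over all genes, with a range from -1.17 (Lcorl) to 0.51. Of the 61, 1 had an unadjusted p under 0.05, again Lcorl (1.64%, against 2.08% of all genes tested). Both Setd1a+/- libraries were below both WT libraries for 7 (11.5%, against 13.8%) and above them for 5 (8.2%, against 13.6%), so none of these shares exceeded that of all genes. The log2 fold changes of 9630013A20Rik, Bmp4, Enpp6 and Gpr17 were 0.09, 0.09, -0.17 and -0.37 (edgeR FDR 1.00 each), and Gpr17 had both Setd1a+/- libraries below both WT libraries. Of 139 listed genes tested, 3 had an unadjusted p under 0.05 (2.16%, near the 2.08% of all genes) and none was called: Mbp (0.49 on the log2 scale), Matn4, a matrilin of OPCs (0.91, and 0.59 without Setd1a+/- replicate 1), and Insig1, a brake on cholesterol synthesis (1.18, and 0.68 without WT replicate 1). Of the H3K4 methyltransferase genes 4 were tested, and Kmt2c had the largest difference, -1.07 (unadjusted p = 0.059 from edgeR), at 65.5, 71.4, 35.1 and 26.9 CPM.

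Whether the genotype effect differed from that in the neighbouring types was tested as an interaction in edgeR, with the library as a block. Against OPCs 5 of 6386 genes were called (0.0783%) and against mature oligodendrocytes 1 of 6984 (0.0143%), and 4 of these 6 are haemoglobin genes. Of 2457 haemoglobin UMIs in the newly formed cells of WT replicate 1, 2420 lay in 1 of 84 cells, which was not marked as a doublet; the other 3 libraries held 2, 9 and 4. Leaving out cells with over 100 haemoglobin UMIs, an alternative chosen after seeing the data, left 2 calls against OPCs, Ptgds and Apod. Ptgds stood at 1101, 934, 554 and 825 CPM in newly formed cells and at 526, 240, 43.4 and 196 CPM in OPCs.

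Against mature oligodendrocytes the same alternative also gave 2 calls, 9630013A20Rik and Pcp4. Over all 8 alternatives 9630013A20Rik was called in 7 and Pcp4 in 6, and neither was called without Setd1a+/- replicate 1. For 9630013A20Rik the interaction was -3.50 on the log2 scale with an edgeR FDR of 0.0806 when all cells were kept. In mature cells Setd1a+/- replicate 1 (159 CPM, the 125 UMIs named above) and replicate 2 (28.6 CPM) were both above WT (8.12 and 7.39 CPM). Whether the interaction depends on the few mature cells that hold most of those UMIs was not tested. In the newly formed cells the genotypes overlapped. Pcp4, a calmodulin-binding protein, stood at 29.8, 219, 242 and 98.6 CPM in newly formed cells and at 50.4, 267, 47.2 and 68.6 CPM in mature ones, so neither type had separate groups.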

How the data were processed

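Single cells of PFC were profiled by 10x Genomics scRNA-seq after papain dissociation and a density gradient. The authors made the matrices of UMI counts with Cell Ranger 3.0.2 (mm10 per the submitters' processing notes); the deposited counts were not normalized. The authors dropped cells under 800 genes or above 10% mitochondrial transcripts, integrated the libraries in Seurat 3.2.0 and named the clusters, and the deposited cell table gives library and type. Its per-cell UMI totals were not used for levels.

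Here, cells of the type were found in the cell table and their counts read from the matrix by barcode. The members and gene lists were chosen with earlier results of these data known. UMIs were summed per library and type, and tested with edgeR 4.0.16 in R 4.3.3 (quasi-likelihood, TMM, filterByExpr with a minimum count of 10, FDR under 0.05, fold change above 1.5). Libraries were the replicates, 2 per genotype, each of 2 pooled mice, so p-values measure the spread between pools. The main genotype fit had no block, so that spread also holds differences between replicate numbers that both genotypes share. DEsingle, the authors' test over cells, was not run. DESeq2 1.42.0, scaling by library size alone, no filter on low counts, leaving out likely doublets, mitochondrial and ribosomal protein genes or each library, and the replicate block were alternatives. Likely doublets were marked with Scrublet in scanpy 1.11.5 (83 of 8997 cells, or 0.922%); in Setd1a+/- replicate 1 it marked 0.0915%, and doublets there may have been missed. By the methods, both genotypes were represented once in every biological replicate, so equal numbers were read as a shared batch; deviations from the genotype mean correlated at 0.342 over 3889 genes. Scripts were tested on simulated data. Genes named are the 4 markers, the first 20 enriched genes, in each list up to 6 members of highest CPM and those past the cutoffs, the 10 genes of smallest p without overlap, and Setd1a; other list members named were chosen after their values were seen. Coordinates are from GENCODE vM21 (GRCm38), where 30934 of 31053 gene IDs were found, and sequences from RefSeq. Values of some list members are not reported here.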

Additional observations from a re-analysis of the deposited data

Results flagged for a closer look

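For 6 genes the genotype effect in newly formed oligodendrocytes differed from that in a neighbouring type by the interaction test of edgeR. Of these, 4 are haemoglobin genes, which are known from red blood cells. Against OPCs the differences on the log2 scale, Setd1a+/- over WT in newly formed cells minus the same in OPCs, were -4.51 for Hbb-bs (FDR 3.26e-38), -9.42 for Hba-a2 (FDR 1.25e-17) and -6.19 for Hba-a1 (FDR 1.5e-17), and against mature oligodendrocytes that for Hbb-bt was -10.1 (FDR 0.0057). Hbb-bs had 1590, 1, 9 and 2 UMIs in the newly formed cells and 1996, 18, 25 and 522 in OPCs; Hbb-bt had 219, 0, 0 and 1 in the newly formed cells and 13, 18, 130 and 1 in mature cells. Cells with over 100 haemoglobin UMIs numbered 1 among the newly formed cells, 4 among OPCs (3 in WT replicate 1 and 1 in Setd1a+/- replicate 2) and 4 among mature cells, and without them none of the 4 genes was called.

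Apod, a lipocalin of mature oligodendrocytes, differed by 3.87 (FDR 3.38e-05). It had 11, 21, 7 and 7 UMIs in the newly formed cells and 41, 434, 5 and 5 in OPCs, most of them in the OPCs of WT replicate 2, and it was not called without that library. Ptgds differed by 1.28 (FDR 4.66e-05), with 370, 183, 142 and 92 UMIs in the newly formed cells and 351, 184, 22 and 73 in OPCs. Both are mature oligodendrocyte genes (1943 and 10401 CPM in mature cells on average). Ptgds was not called without WT replicate 1 or without Setd1a+/- replicate 1, and Apod was not called without Setd1a+/- replicate 2. The cause of either difference was not tested. Without cells rich in haemoglobin both were still called.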

How the results depend on the processing

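The number of genes called between genotypes was 0 and moved to 5 with no filter on low counts (4 haemoglobin genes and Gm42418), to 1 with the replicate block and to 1 with no filter and without cells rich in haemoglobin (Gm42418 in both), and to 0 to 16 when a library was left out (16 without Setd1a+/- replicate 2, 8 without WT replicate 2, 5 without Setd1a+/- replicate 1). Genes at an unadjusted p under 0.05 moved from 81 to 6 by DESeq2, 316 with no filter, 193 with the replicate block, 307 with no filter and without cells rich in haemoglobin, and 101 to 340 without a library. DESeq2, library size alone, leaving out doublets and leaving out mitochondrial and ribosomal protein genes gave 0 calls. Interaction calls against OPCs moved from 5 to 2 without doublets, to 2 without cells rich in haemoglobin and to 1 to 4 without a library (1 without Setd1a+/- replicate 2, 2 without WT replicate 1); those against mature oligodendrocytes moved from 1 to 8 with no filter, 3 by library size alone, 2 without doublets, 2 without cells rich in haemoglobin and 1 to 12 without a library (12 without Setd1a+/- replicate 2, 9 without WT replicate 2, 3 without WT replicate 1). The difference in share ran from -0.66 (without Setd1a+/- replicate 1) to 1.68 percentage points without a library, and was 1.92 as a share of lineage cells. The 61 enriched genes became 20 at 4-fold and 66 to 86 without a library (86 without Setd1a+/- replicate 2), where all 61 remain by construction, since the rule asks for every library. As a mean over cells 57 genes were enriched (54 of the 61 among them) and without doublets 64 (60 of the 61). With all UMIs the mean shares over libraries moved from 26.2% to 46.6% for progenitor UMIs and from 44.6% to 60.1% for late ones. The log2 fold change of 9630013A20Rik turned to -0.083 without doublets and ran from -0.31 to 0.41 without a library, that of Bmp4 from -0.26 to 0.39 and that of Enpp6 from -0.49 to 0.26; none was called. Gm42418 was called in 5 of 12 alternatives, and the block changed no other call of a named gene. For the 17 genes whose fold changes were followed, namely the 4 markers, the 10 genes of smallest p, Mbp, Matn4 and Insig1, the other 192 values kept their direction and side of the threshold. Among other genes named, leaving out Setd1a+/- replicate 1, Setd1a+/- replicate 2 or WT replicate 2 each called the 4 haemoglobin genes, leaving out Setd1a+/- replicate 1 called also Mobp (2.17), leaving out Setd1a+/- replicate 2 called Tubb4a (-1.93), Eno1 (-3.40), Ap2a1 (-6.71), Gapdh (-3.30) and Tmsb10 (-3.73), and leaving out WT replicate 2 called Eno1 (2.77), Ap2a1 (4.11) and Pcp4 (2.61). Of 41 other values the counts stayed within 1.5 times the main count, the panel shares within 1 SD between libraries and the share differences on the same side of 0. A fit without a library leaves 1 library in a genotype, so its calls mix genotype with replicate number. The cause of these moves was not tested, beyond the cells and libraries named.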

Other observations

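Some genes differed in the newly formed cells by replicate number and not by genotype, and did so in OPCs and mature oligodendrocytes too. Eno1, a glycolytic enzyme, stood at 59.5, 781, 39.0 and 798 CPM in newly formed cells, at 82.5, 861, 31.6 and 940 CPM in OPCs and at 11.6, 150, 8.92 and 120 CPM in mature cells, so both libraries numbered 2 were high in every type. Ap2a1, a subunit of the clathrin adaptor, stood at 17.9, 903, 3.90 and 663 CPM in newly formed cells, Gapdh at 44.6, 286, 15.6 and 188 CPM, and Tmsb10, which binds actin, at 50.6, 393, 15.6 and 233 CPM. Tubb4a, described above, was also high in both libraries numbered 2, and Mpzl1 in both numbered 1. These genes were chosen after their values were seen. The labels give no date or run for the libraries, and the cause was not tested.

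Some enriched genes are best known from elsewhere. Bfsp2 (lens), Matn1 (cartilage) and Dmrtb1 (germ cells) were each among the 61 and had a mean over 2-fold above every other type in the striatum too: Bfsp2 averaged 1145 CPM in striatal newly formed cells against 215 CPM in the next striatal type, Matn1 240 against 11.4 CPM, and Dmrtb1 56.0 against 10.9 CPM. In the PFC cells Dmrtb1 stood at 74.4, 133, 74.1 and 89.6 CPM, against 28.6 CPM in OPCs and 0.453 CPM in mature oligodendrocytes on average, and it lies near the 2-fold limit of the rule, with a lowest ratio of 2.09.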
